A study of Bos taurus with 34 samples.

Results

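IFNGR2 (ENSBTAG00000012899), ISG20 (ENSBTAG00000014762), PSMB9 (ENSBTAG00000008954) and PSME1 (ENSBTAG00000021395) are 4 genes of interferon signalling and antigen processing, described here in peripheral white blood cells (PWBC) of beef heifers. They were chosen by measured values, the CPM (counts scaled to a common library total) of all 17 PWBC libraries by pregnancy group, so their levels are a description and carry no test. They are 4 of the 27570 genes in the count table, and all 4 are among the 10942 genes kept because they reached 2 CPM or more in 5 or more libraries. IFNGR2 and PSME1 reached 2 CPM in all 17 libraries and PSMB9 in 15. ISG20 reached it in 6 libraries, 3 of them non-pregnant and 3 pregnant, so it passed largely through the heifers in which it is high.

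The animals were yearling crossbred Angus-Simmental heifers under the same vaccination and estrous synchronisation (CO-Synch with a progesterone insert, the CIDR). All were inseminated at a fixed time with semen of a single sire and were later exposed to bulls. Jugular blood was taken into EDTA on the day of artificial insemination (AI), before the outcome was known, and was held on ice for hours before the buffy coat was freed of red cells and preserved. Each heifer gave 1 PWBC library of messenger RNA and 1 plasma library of small RNA. AI-preg heifers (n = 6) conceived to the insemination, NB-preg heifers (n = 6) conceived later by natural breeding, and non-pregnant heifers (n = 5) did not conceive. The authors left out 1 further non-pregnant library for low yield. The buffy coat is a mixture of cell types, so a lower value can come from fewer cells of a type or from less RNA per cell, and these cannot be told apart.

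Interferon gamma binds a receptor built of IFNGR1 and IFNGR2, and the signal passes through JAK kinases to genes of defence and antigen processing. Type I interferons act through another receptor and induce a large set of antiviral genes, to which ISG20, a 3′ to 5′ RNA exonuclease, belongs. Interferon gamma also induces the immunoproteasome, in which PSMB8, PSMB9 and PSMB10 replace the constitutive catalytic subunits PSMB5, PSMB6 and PSMB7, and its PA28 cap, made of PSME1 and PSME2, which opens the core and alters the peptides made for MHC class I. In cattle and other ruminants the conceptus secretes interferon tau, a type I interferon, and blood leukocytes of pregnant animals respond to it in early pregnancy. The blood used here was drawn before any conceptus of this mating existed.

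IFNGR2 encodes the signalling chain of the interferon gamma receptor. Its level in the 5 non-pregnant heifers was 103 CPM in heifer 94, 52.7 in heifer 101, 187 in heifer 107, 159.8 in heifer 113 and 28.0 in heifer 115. Among AI-preg heifers the lowest value was 21.2 CPM, the median 36.4 and the highest 61.2, in heifer 99. NB-preg heifers ran from 4.67 CPM in heifer 121 through a median of 30.6 to 48.2 in heifer 111. Non-pregnant heifers 94, 107 and 113 thus lay above every pregnant heifer, while heifers 101 and 115 lay within the pregnant range. The mean was 106 ± 67.8 CPM (SD, n = 5) in the non-pregnant group, 37.9 ± 14.1 in AI-preg (n = 6) and 30.0 ± 14.4 in NB-preg (n = 6). In that order the AI-preg and NB-preg means differ by less than the SD of either group. The gap from non-pregnant to AI-preg is about the size of the non-pregnant SD and larger than the AI-preg SD. Across the 17 heifers the highest value was 40.1 times the lowest.

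ISG20 degrades single-stranded RNA and is a textbook interferon-induced antiviral factor. In non-pregnant heifers it stood at 16.2 CPM in heifer 94, 0.240 in heifer 101 (a count of 1), 37.3 in heifer 107, 35.6 in heifer 113 and 0.983 in heifer 115. AI-preg values had a lowest of 0.333 CPM, a median of 0.681 and a highest of 9.00, in heifer 114. The NB-preg group spanned 0.388 to 2.35 CPM with a median of 1.19. The same heifers 94, 107 and 113 were above every pregnant heifer, while heifer 115 fell among the pregnant values and heifer 101 was the lowest of all 17. Non-pregnant heifers averaged 18.1 ± 18.0 CPM (SD, n = 5) and the 12 pregnant heifers 1.72 ± 2.40. The order of means was non-pregnant, AI-preg (2.19 ± 3.40) and NB-preg (1.24 ± 0.777). Neither step of that order is larger than the SD of its higher group, but each is larger than the SD of its lower group. Heifer 114 made the AI-preg mean, since the next highest value in its group was 2.102 CPM, in heifer 117.

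PSMB9, also called LMP2, is a catalytic subunit of the immunoproteasome core. Non-pregnant values were 48.1 CPM in heifer 94, 9.59 in heifer 101, 41.8 in heifer 107, 148 in heifer 113 and 1.35 in heifer 115. AI-preg heifers had a lowest value of 0.925 CPM in heifer 119, a median of 11.1 and a highest of 42.0 in heifer 117. In NB-preg heifers the lowest was 2.35 CPM in heifer 116, the median 10.3 and the highest 178 in heifer 108, followed by 84.8 in heifer 103. No non-pregnant heifer lay above every pregnant heifer, and the highest value of all belonged to a pregnant animal. Means were 49.8 ± 58.6 CPM (SD, n = 5) in non-pregnant, 48.2 ± 71.2 in NB-preg and 15.01 ± 15.4 in AI-preg heifers. Neither step in this order is larger than the SD of its higher group, but the step from NB-preg to AI-preg is larger than the AI-preg SD. The highest heifer had 193 times the level of the lowest.

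PSME1 encodes the alpha subunit of the PA28 cap, which sits on the ends of the proteasome core. Its non-pregnant values were 510.0 CPM in heifer 94, 213 in heifer 101, 390.2 in heifer 107, 554 in heifer 113 and 6.51 in heifer 115. AI-preg heifers ran from 55.3 CPM in heifer 119 through a median of 188 to 431 in heifer 92. For NB-preg the lowest value was 52.3 CPM in heifer 121, the median 153 and the highest 286 in heifer 103. Heifers 94 and 113 exceeded every pregnant heifer, heifer 107 lay below the highest pregnant value, and heifer 115 was the lowest of all 17. Non-pregnant heifers averaged 335 ± 226 CPM (SD, n = 5), AI-preg 228 ± 136 and NB-preg 164 ± 102, and each neighbour in that order lies within the spread of the other.

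**Figure D1:**
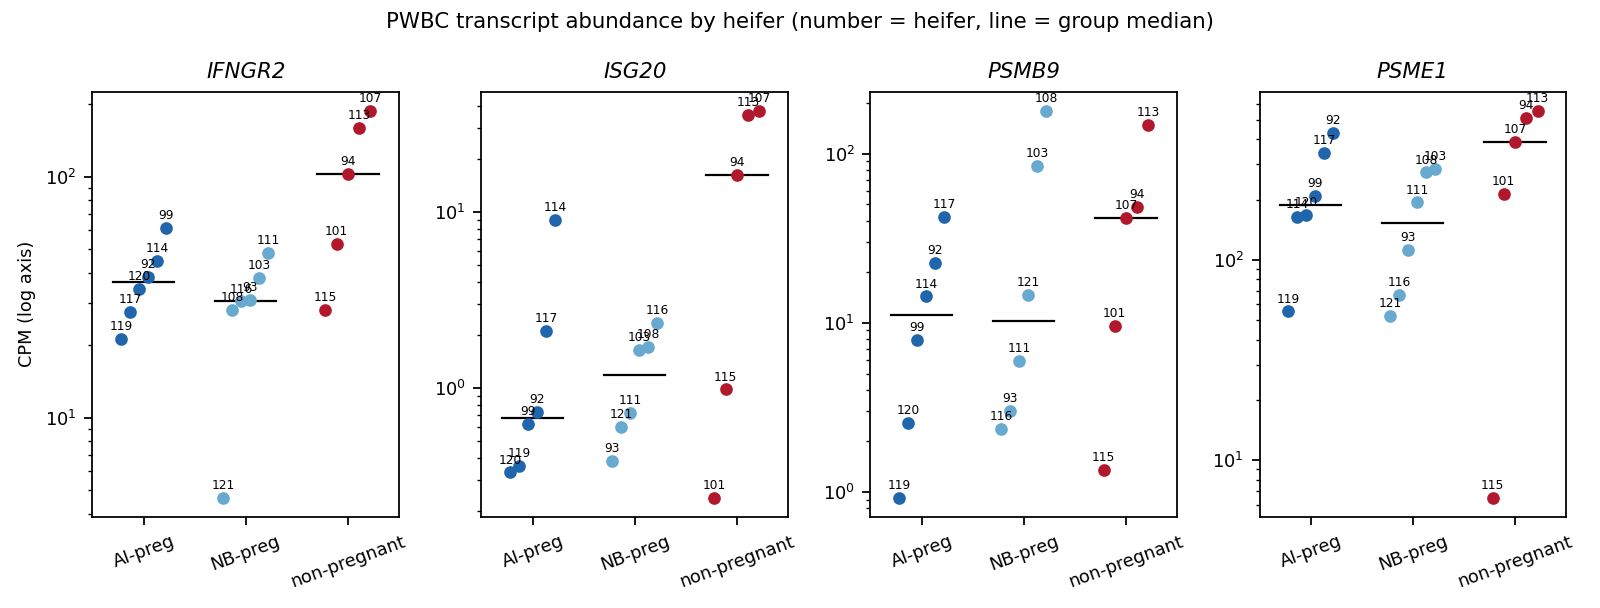
CPM of IFNGR2, ISG20, PSMB9 and PSME1 on a log axis in each of the 17 heifers, by group, with a line at each group median. Non-pregnant heifers 94, 107 and 113 are high for all 4 genes, and heifers 101 and 115 lie among or below the pregnant heifers.

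The plot of values by heifer shows what the 4 genes share and where they part. Heifers 94, 107 and 113 were above the mean of the log2 values for all 4 genes, and no other heifer was. Heifer 115 was below the mean for all 4, and so were heifer 119 of the AI-preg group and heifers 93 and 116 of the NB-preg group. The non-pregnant group was therefore split within itself, and its mean rested on 3 of 5 animals. This split was not particular to the 4 genes. Heifers 94, 107 and 113 were also above every pregnant heifer for the T cell marker LCK, the eosinophil marker IL5RA and the summed neutrophil markers. The authors report that some non-pregnant samples lay apart from the other heifers when all protein-coding genes were used. How many of the genes kept have this split was not measured. Among pregnant heifers the 2 proteasome genes had peaks of their own, PSMB9 in heifers 108 and 103 and PSME1 in heifers 92 and 117, in which IFNGR2 stayed between 27.4 and 38.4 CPM.

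Fitted differences put these patterns on one scale. With edgeR, and library size as the total over the genes kept, the log2 fold change of non-pregnant over pregnant was 1.65 (SE 0.43) for IFNGR2. For ISG20 it was 3.47 (SE 0.86). PSMB9 had 0.89 (SE 0.95) and PSME1 0.79 (SE 0.59), values of the size of their errors. Ordered by this fold change, ISG20 was at place 12 and IFNGR2 at place 499 of 10942 genes, with PSMB9 at 1692 and PSME1 at 1965, as the choice of members would have it. Leaving out heifer 113 turned PSMB9 to -0.090, and leaving out heifer 114 moved ISG20 to 4.16.

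In non-pregnant against pregnant heifers the edgeR quasi-likelihood test called 0 of 10942 genes (0%) at an adjusted p under 0.05, so 0 of the 4 members, with 986 genes (9.01%) at an unadjusted p under 0.05. The edgeR likelihood ratio test called 18 genes (0.165%), of the members ISG20, and the DESeq2 Wald test called 44 of 10476 (0.420%), of the members ISG20 and IFNGR2. Because the same values chose the members, nothing is read from these counts. Of the 986 genes, 555 were higher in non-pregnant heifers, or 56.3%, a share that was 69.2% with TMM scaling factors and 82.0% with DESeq2. Without heifer 101 the majority turned, with 664 genes higher and 1267 lower. The count of 986 was 377 without heifer 113, 488 without heifer 107, 589 without heifer 94, 1931 without heifer 101 and 2344 without heifer 115. Removing any of the 3 heifers with high members thus gave fewer such genes, and removing either of the others gave more.

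Scaling changed the level against which the members are read. The median log2 fold change of all genes was -0.11 with library totals, -0.028 with TMM and 0.14 with DESeq2 size factors, a shift of 0.24 in the last case. Relative to that median IFNGR2 had 1.76 with library totals, 1.77 with TMM and 1.77 with DESeq2. ISG20 had 3.58, 3.44 and 3.45 in the same order, PSMB9 1.00, 0.98 and 0.99, and PSME1 0.90, 0.90 and 0.89. Scaling moves all genes nearly alike, so these distances had little room to differ.

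The pregnant groups were also taken apart. Against AI-preg heifers alone the non-pregnant group had a log2 fold change of 1.49 (SE 0.52) for IFNGR2, 3.06 (SE 1.08) for ISG20, 1.73 (SE 1.13) for PSMB9 and 0.56 (SE 0.69) for PSME1, where all genes had a median of -0.15. The same heifers against NB-preg gave 1.82 (SE 0.53), 3.89 (SE 1.13), 0.051 (SE 1.12) and 1.03 (SE 0.69) in that order, with a median of -0.048 for all genes. Both comparisons use the same 5 non-pregnant heifers, so their likeness is no result. The values of PSMB9 were the farthest apart between the comparisons, and heifers 108 and 103 had its highest NB-preg levels. Without heifer 108 its value against NB-preg was 1.17, and without heifer 113 it was -0.93. It was also below 0, between -0.20 and -0.14, without any of the NB-preg heifers 93, 111, 116 and 121. Against AI-preg PSMB9 was 0.75 without heifer 113 and 2.38 without heifer 117, and ISG20 was 4.43 without heifer 114.

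AI-preg against NB-preg is a comparison that leaves the non-pregnant heifers aside. IFNGR2 had a log2 fold change of 0.34 (SE 0.50), ISG20 of 0.84 (SE 1.00), PSMB9 of -1.68 (SE 1.10) and PSME1 of 0.47 (SE 0.66), against a median of 0.092 for all genes. Single animals carried the larger of these. ISG20 was at -0.54 without heifer 114, and PSMB9 was at -0.56 without heifer 108 and -2.32 without heifer 117.

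None of these comparisons called a member with the edgeR quasi-likelihood test. Against AI-preg it called 0% of 10942 genes, with 585 (5.35%) at an unadjusted p under 0.05, while the likelihood ratio test called 0% and DESeq2 5 of 10901 (0.0459%), no member among them. Against NB-preg it called 0%, with 672 (6.14%) unadjusted, the likelihood ratio test 0% and DESeq2 11 of 10901 (0.101%), IFNGR2 and ISG20 among them. AI-preg against NB-preg gave 0% by all 3 tools and 16 genes (0.146%) unadjusted. Of the unadjusted genes 48.5% were higher in non-pregnant than in AI-preg heifers, which became 64.2% with TMM and 85.9% with DESeq2. The share against NB-preg was 45.8%, 57.1% and 77.3% in the same order. Leaving out heifer 101 moved both shares down. It gave 407 genes higher and 1240 lower against AI-preg, and 372 higher and 917 lower against NB-preg. The median of all genes moved by 0.13 with TMM and 0.31 with DESeq2 against AI-preg, by 0.18 with DESeq2 against NB-preg and by -0.11 with DESeq2 between the pregnant groups.

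Those counts also hung on single heifers. The 585 against AI-preg became 236 without heifer 113, 283 without 107, 344 without 120, 348 without 94, 353 without 119, 1500 without 115 and 1647 without 101. For the 672 against NB-preg the values were 269 without heifer 113, 309 without 107, 372 without 121, 426 without 94, 1289 without 101 and 1882 without 115. The 16 between AI-preg and NB-preg became 7 without heifer 120, 26 without 92, 35 without 111, 43 without 93 and 129 without 114.

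The pathways around the members were taken from lists of known components. Of 152 symbols in 8 lists, 40 had an identifier, since symbols came only from the supplementary tables of the study, and all 40 were kept. Without the members 36 genes remain, none of which was called in any comparison by edgeR or DESeq2. For non-pregnant against pregnant heifers 30 of the 36 had a log2 fold change above 0, with library totals, TMM and DESeq2 alike. Among all 10942 genes 44.4% were above 0, and among the 2228 kept genes with a symbol 59.0%, with a median of 0.36 against -0.11 for all. The tables that gave the symbols come from these same libraries, so the direction of the lists is not independent evidence.

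Beside IFNGR2 the interferon gamma receptor chain held 2 measured genes of 12 in its list, PTPN6 and CIITA. PTPN6, the phosphatase SHP-1 that dampens JAK signalling, was at 255 CPM in heifer 94, 105 in 101, 187 in 107, 481 in 113 and 4.18 in 115. CIITA, the master regulator of MHC class II genes, was at 52.2, 66.4, 27.6, 76.6 and 0.369 CPM in the same heifers. In heifer 101, the lowest in ISG20, CIITA was near its highest value, and heifer 115 was low in both genes. The log2 fold change was 1.35 (SE 0.77, adjusted p = 0.583 by edgeR) for PTPN6, which became 0.77 without heifer 113, and 1.29 (SE 0.75, adjusted p = 0.587) for CIITA. Their median was 1.32, and both were above 0 under each scaling.

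The list of type I and III interferon receptors and their regulatory factors had 3 measured genes of 9, IRF9, IRF3 and IRF7, and no receptor chain. Their log2 fold changes had a median of 1.03, and 3 of 3 were above 0 under each scaling. IRF7, the regulator that amplifies type I interferon production, had the smallest p, with 2.50 (SE 1.02, adjusted p = 0.532). It averaged 4.31 ± 5.48 CPM in the 5 non-pregnant heifers and 0.818 ± 1.15 in the 12 pregnant, and had no count in heifers 115 and 116. Heifer 113 alone had 13.8 CPM, and IRF7 passed the filter in 12 of the 17 fits that leave out a heifer, with no value without heifers 94, 103, 107, 108 or 113.

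The interferon-stimulated genes had 10 measured genes of 59 besides ISG20. Of these 6 were above 0 and 4 below, under each scaling, with a median of 1.86. At an unadjusted p under 0.05, which is no call and which 9.01% of all genes and 18.9% of the genes with a symbol reached, 5 were higher in non-pregnant heifers (IFIT1, IFIT2, IFIT3, DHX58 and LGALS9) and 2 lower (CXCL10 and GBP5), and EPSTI1 and TNFSF10 were the other two below 0. Apart from CXCL10 and GBP5 the genes of this paragraph were named after their values were seen. IFIT3, a binding partner of IFIT1 on foreign RNA, stood at 872 CPM in heifer 94, 37.6 in 101, 1655 in 107, 955 in 113 and 182 in 115. AI-preg heifers had 17.1 to 518 CPM with a median of 24.6, and NB-preg heifers 13.7 to 501 with a median of 36.6. Heifer 114 of the AI-preg group and heifer 116 of the NB-preg group held the high pregnant values, and both animals were also the highest of their group for IFIT1 and IFIT2. Without heifer 114 the log2 fold changes of IFIT1, IFIT2 and IFIT3 were 3.30, 3.12 and 3.90, against 2.22 (SE 0.90), 2.25 (SE 0.78) and 2.78 (SE 0.90) with all heifers. They were 3.18, 2.93 and 3.65 without heifer 116. The smallest were 1.63 for IFIT1 and 2.25 for IFIT3 without heifer 107 and 1.89 for IFIT2 without heifer 113.

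Not every interferon-stimulated gene shared that side. CXCL10, a chemokine induced by interferon gamma that draws T cells, had 16.3, 25.2, 10.2, 15.2 and 19.4 CPM in non-pregnant heifers 94, 101, 107, 113 and 115. AI-preg heifers had 18.9 to 119 CPM with a median of 35.7, and NB-preg heifers 15.2 to 72.6 with a median of 40.3. The non-pregnant heifers were thus low and close together, and overlapped the lower part of the pregnant range. The log2 fold change was -1.43 (SE 0.49, adjusted p = 0.506), and -1.62 (SE 0.53, adjusted p = 0.780) against AI-preg alone. GBP5, a guanylate-binding protein also induced by interferon gamma, averaged 29.0 ± 13.1 CPM in non-pregnant and 51.7 ± 15.8 in pregnant heifers, with -0.82 (SE 0.35, adjusted p = 0.532). Between AI-preg and NB-preg, where GBP5 had the smallest p of the list, its value was 0.43 (SE 0.36, adjusted p = 0.9996).

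**Figure D2:**
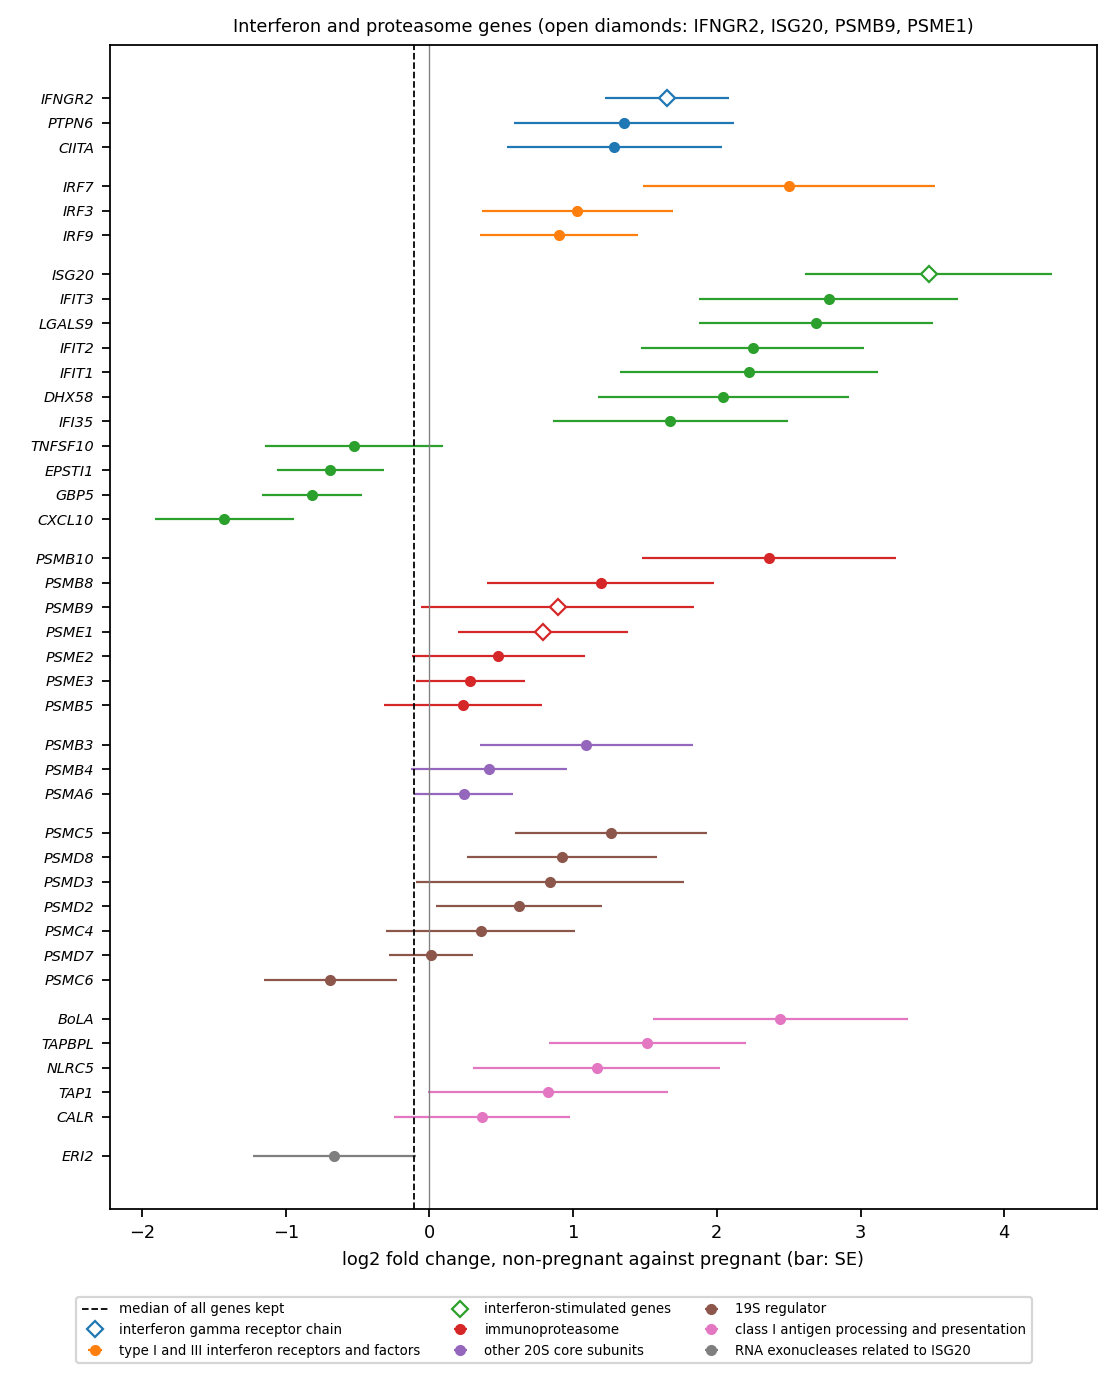
Log2 fold change with its SE, non-pregnant over pregnant heifers, for the 4 members and the 36 other list genes, by list, with library totals. Of the other genes 30 are above 0 and 6 below, with library totals, TMM and DESeq2 alike, and the median of all genes is -0.11.

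Of 10 genes in the immunoproteasome list 7 were measured, PSMB9 and PSME1 among them. PSMB8 (LMP7), the catalytic subunit that replaces PSMB5, stood at 531 CPM in heifer 94, 175 in 101, 399 in 107, 768 in 113 and 3.56 in 115. AI-preg heifers spanned 6.48 to 439 CPM with a median of 123, and NB-preg heifers 21.0 to 411 with a median of 77.2. PSMB10 (MECL-1), the remaining inducible catalytic subunit, had 61.6, 11.5, 55.3, 188 and 1.11 CPM in the same non-pregnant heifers. In AI-preg it had 0.161 to 20.9 CPM with a median of 10.7, and in NB-preg 1.29 to 46.7 with a median of 4.33. For PSMB10 heifers 94, 107 and 113 lay above every pregnant heifer, and for PSMB8 heifers 94 and 113 did.

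The fitted values of this list were uneven. PSMB10 had a log2 fold change of 2.36 (SE 0.88, adjusted p = 0.514), which was 1.39 without heifer 113, and PSMB8 one of 1.19 (SE 0.79, adjusted p = 0.623), which was 0.76 without the same heifer. PSME2, the partner of PSME1 in the PA28 cap, had 0.48 (SE 0.60, adjusted p = 0.781), with 0.20 without heifer 113 and 0.79 without 115. PSME3, which forms a separate nuclear cap, had 0.28 (SE 0.38, adjusted p = 0.796), and 0.13 and 0.55 without the same heifers. PSMB5, the constitutive subunit that PSMB8 replaces, had 0.23 (SE 0.55, adjusted p = 0.885) and turned to -0.28 without heifer 94. All 5 were above 0 under each scaling, with a median of 0.48, and PSMB10 was the gene at an unadjusted p under 0.05. PSME3 also showed heifer 115 apart from its group, at 36.3 CPM where the other non-pregnant heifers had 205 to 272.

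The rest of the proteasome had no gene at an unadjusted p under 0.05. Of 11 other subunits of the 20S core 3 were measured, with a median of 0.41 and 3 of 3 above 0 under each scaling. PSMB3, a structural beta subunit, had the smallest p with 1.09 (SE 0.74, adjusted p = 0.631), and 0.64 without heifer 94. The 19S regulator, the cap that recognises ubiquitin and unfolds substrates, had 7 measured genes of 23, a median of 0.62 and 6 of 7 above 0 under each scaling. Its ATPase PSMC5 had the smallest p with 1.26 (SE 0.67, adjusted p = 0.566). Another ATPase of the same ring, PSMC6, was on the other side with -0.69 (SE 0.46), which became -1.35 without heifer 115, and -0.96 (SE 0.52, adjusted p = 0.778) against NB-preg. PSMD7, named after its values were seen, was at 0.0099 (SE 0.29), a value that lies on the other side of 0 in 8 of the 17 fits that leave out a heifer.

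Class I presentation follows the proteasome, since its peptides are carried by TAP and loaded on MHC class I. Of 16 genes 5 were measured, with a median of 1.16 and 5 of 5 above 0 under each scaling, and 2 higher at an unadjusted p under 0.05, which were BoLA and TAPBPL. The gene annotated as BoLA, a bovine MHC class I gene, had 2.44 (SE 0.89, adjusted p = 0.506), and 0.90 without heifer 94. That heifer had 143 CPM and the other non-pregnant heifers 0.246 to 31.9. Reads shared by near-identical class I copies were not counted, and what this does to the value was not measured. TAPBPL, an editor of the peptides on class I, had 1.52 (SE 0.69, adjusted p = 0.538) and had the smallest p against NB-preg with 1.59 (SE 0.83, adjusted p = 0.778). CALR, a chaperone of class I assembly named after its values were seen, had 0.37 (SE 0.61) and turned to -0.11 without heifer 101. In the list of RNA exonucleases related to ISG20, 1 other gene of 13 was measured, ERI2, with -0.66 (SE 0.57, adjusted p = 0.688), and it was below 0 under each scaling.

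List medians also moved with single heifers, as the fits that leave out a heifer show. The receptor chain ran from 0.88 without heifer 113 to 1.64 without heifer 115, the type I and III list from 0.73 (without IRF7, which then failed the filter) to 1.35 and the interferon-stimulated genes from 1.33 to 2.18 on leaving out the same animals. The immunoproteasome ran from 0.20 to 0.79 without these heifers too. Other core subunits reached 0.11 without heifer 94 and 0.68 without 115, the 19S regulator 0.41 without 101 and 0.93 without 115, class I presentation 0.90 without 94 and 1.49 without 99, and ERI2 -1.21 without 101 and -0.41 without 113. The count of genes above 0 was at its lowest, 27, without heifer 94, where IRF7 had no value.

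List medians were also taken against each pregnant group. Against AI-preg the medians were 1.27 for the receptor chain, 0.95 for the type I and III list, 1.80 for the interferon-stimulated genes and 0.44 for the immunoproteasome. For the other core subunits the value was 0.48, for the 19S regulator 0.61, for class I presentation 0.99 and for ERI2 -0.77. Against NB-preg the same 8 values were 1.37, 1.24, 1.72, 0.52, 0.35, 0.59, 1.499 and -0.56, from the same non-pregnant heifers. AI-preg against NB-preg, which does not use them, gave 0.11, -0.091, 0.19, 0.088, 0.0018, 0.10, 0.16 and 0.21. Signs within the lists depended on scaling for PSMD7 against AI-preg with TMM, for PSMC6 and PSMD7 against AI-preg with DESeq2, for PSMA6 between the pregnant groups with TMM, and for PSME2, PSMA6 and PSMD7 there with DESeq2.

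**Figure D3:**
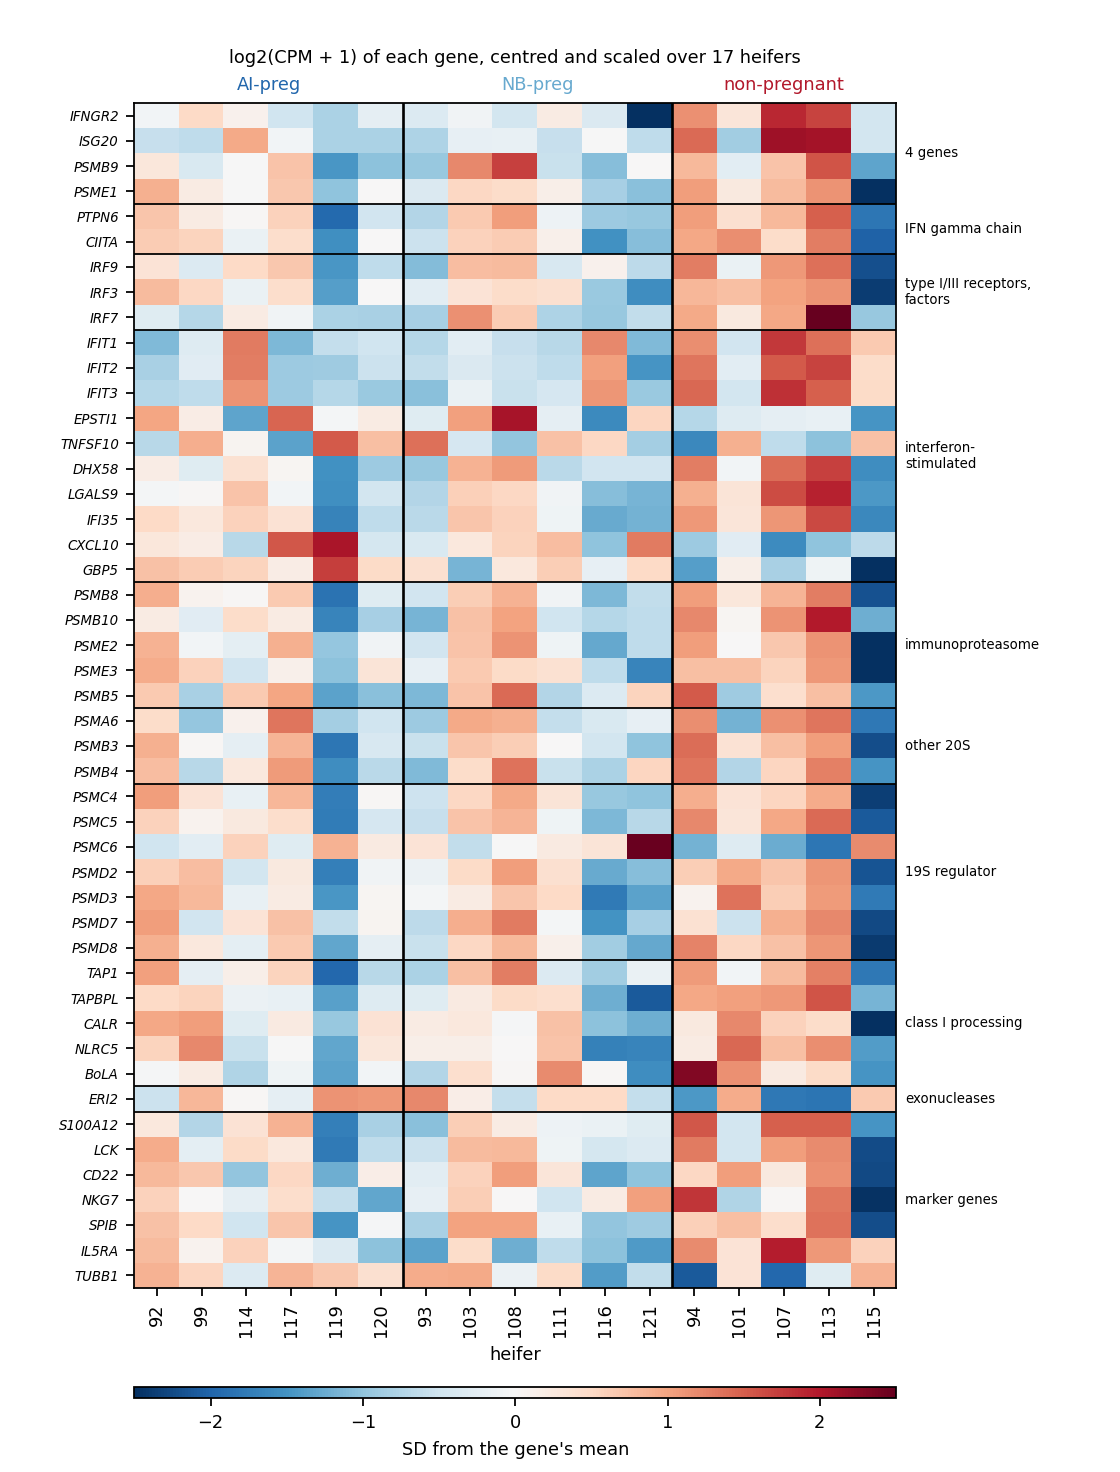
Log2(CPM + 1) of the members, the 36 list genes and the most abundant marker of each blood cell type, each centred and scaled to its mean and SD over 17 heifers, with heifers grouped by outcome. Of 15 measured proteasome genes other than the members, 14 are above their mean in heifers 92, 117, 103, 108, 94, 107 and 113, and 1 is in heifers 119, 93, 116 and 115.

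The heat map of list genes shows 2 patterns that do not follow the outcome groups alone. The proteasome genes went together by heifer, and the heifers with 14 of 15 above the mean include AI-preg, NB-preg and non-pregnant animals. Those with only 1 of 15 above it likewise come from all 3 groups. The IFIT genes had another distribution, high in non-pregnant heifers 94, 107, 113 and 115 and in pregnant heifers 114 and 116. Heifers 115 and 116 were therefore high for IFIT1, IFIT2 and IFIT3 and low for nearly all proteasome genes. In heifer 116, 8 of 36 list genes were above their mean, and in heifer 115, 6 of 36.

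Correlations over the 17 heifers describe how the members varied together, and each uses log2(CPM + 1) of the same libraries, depth and cell mixture. PSMB9 and PSME1, parts of one enzyme complex, had Pearson r = 0.72 and Spearman rho = 0.79, with r = 0.72 once the heifers most distant from the middle value of PSMB9, 108 and 113, were set aside, and 0.83 without those of PSME1, 121 and 115. IFNGR2 and ISG20 had r = 0.72 but rho = 0.38, and r = 0.74 without the farthest heifers of IFNGR2, 121 and 107, but 0.42 without those of ISG20, 107 and 113. That last value, the difference between r and rho, and an r of 0.22 in the 12 pregnant heifers, show that the linear relation rested on the heifers with high values. IFNGR2 and PSME1 had r = 0.58 and rho = 0.64, with 0.55 without heifers 121 and 107 and 0.65 without 121 and 115. ISG20 and PSMB9 had r = 0.57 and rho = 0.56, with 0.43 without heifers 107 and 113 and 0.55 without 108 and 113. ISG20 with PSME1 gave r = 0.46 and rho = 0.51, with 0.30 without heifers 107 and 113 and 0.55 without 121 and 115. IFNGR2 with PSMB9 gave r = 0.37 and rho = 0.31, with 0.48 without heifers 121 and 107 and 0.34 without 108 and 113. Among pregnant heifers (n = 12) r was 0.66 for PSMB9 with PSME1, 0.59 for IFNGR2 with PSME1, 0.36 for ISG20 with PSMB9, 0.18 for ISG20 with PSME1 and -0.0098 for IFNGR2 with PSMB9.

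Within the lists the members shared some partners and not others, and the genes given next were picked after the values were seen, with no test of a difference between correlations. PSMB10 had r = 0.77 and rho = 0.72 with ISG20 over 17 heifers, and r = 0.64 without heifers 107 and 113. DHX58 had r = 0.78 and rho = 0.74 with ISG20 (0.64 without them), and r = 0.92 and rho = 0.89 with PSMB9 (0.90 without heifers 108 and 113). ERI2 was opposed to both, at r = -0.83 and rho = -0.80 with ISG20 (-0.66 without heifers 107 and 113) and r = -0.79 and rho = -0.81 with PSMB9 (-0.75 without heifers 108 and 113). ISG20 had r = 0.88 and rho = 0.76 with IFIT3 over 17 heifers, and r = 0.81 without heifers 107 and 113. PSME1 had r = 0.15 and rho = 0.37 with IFIT3, and r = 0.30 without heifers 121 and 115. PSMB9 went with TAP1, a chain of the peptide transporter, at r = 0.94 and rho = 0.96 (0.93 without heifers 108 and 113), and with PSMB10 at r = 0.92 and rho = 0.91 (0.91 without them). PSME1 went with PSMD8, a lid subunit of the 19S regulator, at r = 0.98 and rho = 0.98 (0.98 without heifers 121 and 115) and with PSMB8 at r = 0.94 and rho = 0.97 (0.98 without them). IFNGR2 had its lowest correlation in the lists with PSMC6, at r = -0.90 and rho = -0.72 (-0.81 without heifers 121 and 107).

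Genes with a symbol whose levels were most like each member were found among 2223 genes over the 17 heifers. The symbols came from supplementary tables made from these same libraries, so the genes named are the most alike only within that set. Of kept genes with r above 0.9, those with a symbol were 5 of 11 for IFNGR2 and 9 of 21 for ISG20. They were 273 of 408 for PSMB9 and 295 of 567 for PSME1. For IFNGR2 these were PLEKHO1 (r = 0.93), SDCBP (0.92), UCP2 (0.91), RAB31 (0.90) and ABHD2 (0.90), with rho between 0.75 and 0.89, and DPM1 was the most opposed at r = -0.92 (rho = -0.75, and -0.85 without heifers 121 and 107). SDCBP is the adaptor syntenin and UCP2 a mitochondrial carrier. Without heifers 121 and 107 the r of these 5 was 0.91, 0.86, 0.83, 0.78 and 0.87. For ISG20 they were RPL36 (0.95), DUSP2 (0.93), MARCKSL1 (0.93), NFE2 (0.92) and TIAM2 (0.91), with rho between 0.61 and 0.90, and KRIT1 was the most opposed at r = -0.94 (rho = -0.88, and -0.85 without heifers 107 and 113). NFE2 is a transcription factor of myeloid and megakaryocytic cells, and DUSP2 a phosphatase of activated leukocytes. Without heifers 107 and 113 these 5 had r of 0.88, 0.86, 0.86, 0.89 and 0.84.

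The proteasome members had closer company. PSMB9 was most like DRAP1 (r = 0.98), ADSL (0.98), TRPV2 (0.98), INTS5 (0.97) and POLR2E (0.97), with rho between 0.95 and 0.99, and RNF125 was the most opposed at r = -0.95 (rho = -0.93, and -0.95 without heifers 108 and 113). POLR2E and INTS5 belong to the transcription machinery. PSME1 was most like RPL7L1 (0.99), PAAF1 (0.99), EIF4A1 (0.98), INPP5D (0.98) and IMPDH2 (0.98), with rho between 0.94 and 0.99, and UBE2W was the most opposed at r = -0.93 (rho = -0.87, and -0.91 without heifers 121 and 115). PAAF1 is a proteasome-associated factor that regulates the joining of the 19S cap to the core, and INPP5D is the leukocyte phosphatase SHIP1. Without the 2 farthest heifers r was 0.97 to 0.98 for the 5 genes of PSMB9 and 0.95 to 0.99 for those of PSME1. An r above 0.9 was reached by 408 of 10941 kept genes with PSMB9 and by 567 with PSME1, but by 11 with IFNGR2 and 21 with ISG20. The levels of PSMB9 and PSME1 were thus part of a pattern that many genes had in these libraries, which IFNGR2 and ISG20 followed less. ISG20 had few counts in most heifers, down to 1 in heifer 101. Low counts limit how high r can be, so its number is not a like comparison.

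Position in the genome, which the choice of members did not use, gave neighbours from the RefSeq gene order of ARS-UCD2.0. PSMB9 lies on chromosome 23 in the MHC, next to TAP1 and with PSMB8 2 genes away on the same side (r = 0.86, rho = 0.88, and 0.86 without heifers 108 and 113). BOLA-DMB, an MHC class II chaperone gene 2 genes away on its other side, had r = 0.94 and rho = 0.96 with PSMB9 (0.93 without them), while BRD2, 4 genes away, had r = 0.49 and rho = 0.37 (0.49 without them). PSME1 lies on chromosome 10 with PSME2 2 genes away (r = 0.96, rho = 0.94, and 0.95 without heifers 121 and 115) and IRF9 4 genes away (r = 0.86, rho = 0.86, and 0.80 without them). Its immediate neighbours were EMC9, with r = 0.81 and rho = 0.87 (0.87 without them), and FITM1, with r = -0.42 and rho = -0.63 (-0.76 without them). DCAF11, 2 genes away beyond FITM1, had r = 0.90 and rho = 0.83 (0.84 without them). Among the 5 measured genes around PSME1 only FITM1 had an r below 0. High r was not particular to neighbours, since 567 of 10941 kept genes had r above 0.9 with PSME1 and 408 with PSMB9. Neighbours were measured only where the supplementary tables gave an identifier, so nothing is read from their position. IFNGR2 lies on chromosome 1 beside IFNAR1, IL10RB and IFNAR2, which encode other cytokine receptor chains and were not analysed here. ISG20 lies on chromosome 21 next to AEN, an exonuclease of the same family, also not analysed here. Of its measured neighbours MRPS11, 3 genes away, had r = 0.70 and rho = 0.59 (0.39 without heifers 107 and 113), and MRPL46, 4 genes away, r = 0.11 and rho = 0.081 (0.010 without them).

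Markers of blood cell types were followed beside the members. Of 7 neutrophil markers 4 had an identifier, and their summed level was 12979 CPM in heifer 94, 557 in 101, 11391 in 107, 12197 in 113 and 167 in 115. AI-preg heifers had 76.7 to 4132 CPM with a median of 1005, and NB-preg heifers 220.1 to 2865 with a median of 946. S100A12, a calcium-binding protein of granulocytes, was the most abundant, and no neutrophil marker was at 0 in any library. The 3 heifers with the highest sum were those with the highest IFNGR2 and ISG20, and the part of this in the members' levels was not tested.

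A neutrophil score, the mean log2(CPM + 1) of CXCR2 and TREM1 and so of 2 of the 4 markers, put this beside each gene. The score was 5.45 in heifer 94, 3.14 in 101, 5.80 in 107, 6.32 in 113 and 2.68 in 115, and from 0.686 to 4.68 in pregnant heifers. With the score ISG20 had r = 0.88 and rho = 0.71 over 17 heifers, and 0.75 without heifers 113 and 107. IFNGR2 had r = 0.76 and rho = 0.73, and 0.55 without them. PSMB9 had r = 0.39 and rho = 0.31, and 0.14 without them, and PSME1 had r = 0.38 and rho = 0.48, and 0.19 without them. Among the 12 pregnant heifers r was 0.67 for ISG20, 0.35 for IFNGR2, -0.014 for PSMB9 and 0.037 for PSME1. The neutrophil markers differed in how they went with the proteasome members. With S100A12 over the 17 heifers PSMB9 had r = 0.83 (rho = 0.83, and 0.89 without heifers 108 and 113) and PSME1 r = 0.76 (rho = 0.82, and 0.82 without heifers 121 and 115). Within the score, TREM1 had r = 0.65 with PSMB9 (rho = 0.60, and 0.78 without the same heifers) and 0.79 with PSME1 (rho = 0.84, and 0.79 without them). CXCR2 had r = 0.19 with PSMB9 (rho = 0.14, and 0.17 without them) and 0.091 with PSME1 (rho = 0.18, and 0.24 without them). With CSF3R, a neutrophil marker named after its values were seen, PSMB9 had r = 0.66 (rho = 0.60, and 0.63 without them) and PSME1 r = 0.44 (rho = 0.54, and 0.69 without them). CSF3R had r = 0.91 with ISG20 (rho = 0.92, and 0.87 without 2 heifers) and 0.65 with IFNGR2 (rho = 0.49, and 0.69 without 2), and a log2 fold change of non-pregnant over pregnant of 4.20 (SE 0.91, adjusted p = 0.506). IFNGR2 and ISG20 had r = 0.59 and 0.81 with S100A12 (rho = 0.50 and 0.81, and 0.65 and 0.73 without 2 heifers each). With TREM1 they had r = 0.79 and 0.76 (rho = 0.74 and 0.57, and 0.82 and 0.50 without 2), and with CXCR2 0.61 and 0.80 (rho = 0.60 and 0.61, and 0.62 and 0.68 without 2).

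**Figure D4:**
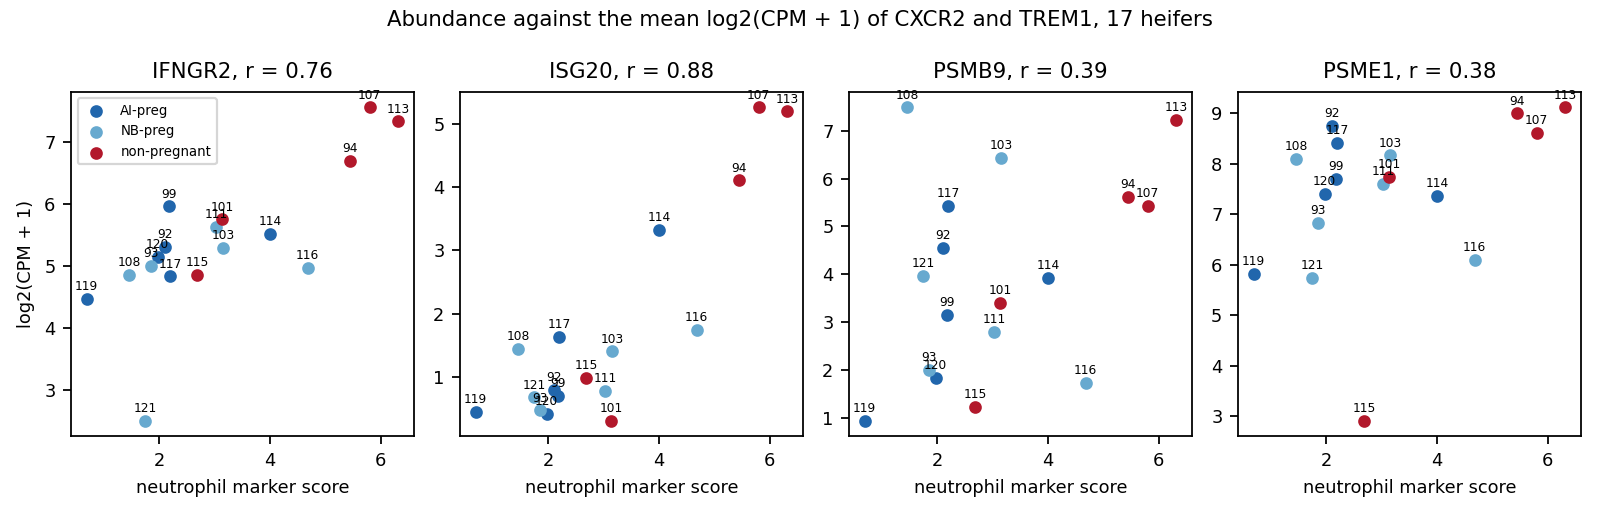
Log2(CPM + 1) of each member against the neutrophil score (mean log2(CPM + 1) of CXCR2 and TREM1) in 17 heifers, coloured by group. Heifers 94, 107 and 113 have the highest scores, between 5.45 and 6.32, and Pearson r is 0.76 for IFNGR2, 0.88 for ISG20, 0.39 for PSMB9 and 0.38 for PSME1.

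With the score as a covariate in the fit, the log2 fold change of non-pregnant over pregnant was 0.34 (SE 0.58) for IFNGR2, -0.28 (SE 1.08) for ISG20, -1.26 (SE 2.34) for PSMB9 and -0.51 (SE 1.05) for PSME1. Of the 36 list genes 13 were then above 0, and 19 had the other sign than without the score. List medians were then 0.46 for the receptor chain, -0.15 for the type I and III list and -0.32 for the interferon-stimulated genes. For the immunoproteasome the median was -0.43, for the other core subunits -0.54 and for the 19S regulator -0.098. Class I presentation was at 0.73 and ERI2 at -0.12. The score differs between the groups, and the standard errors of the members were larger with it, so a difference between groups and a difference in neutrophil markers cannot be told apart in these animals. At an unadjusted p under 0.05 there were 53 genes higher and 76 lower, or 41.1% higher.

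**Figure D5:**
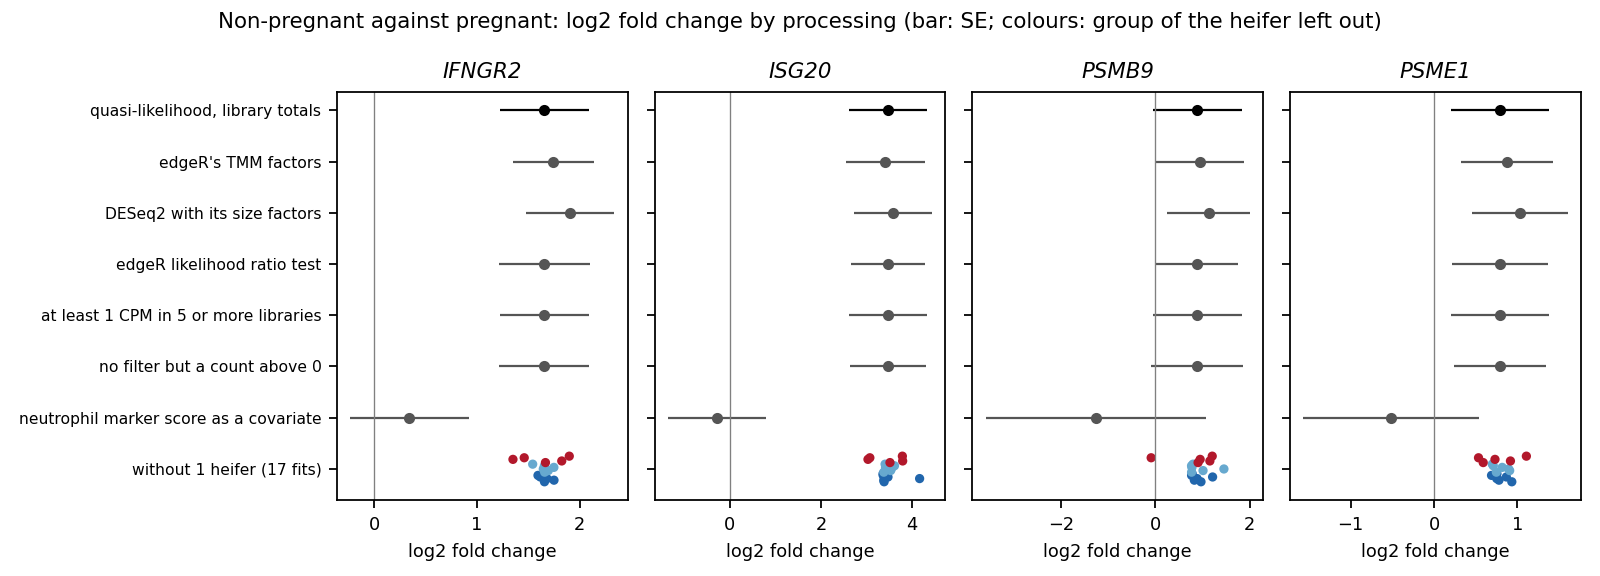
Log2 fold change with its SE, non-pregnant over pregnant, of each member with library totals, TMM, DESeq2, the likelihood ratio test, other filters, the neutrophil score as covariate and, as points coloured by group, leaving out each heifer. IFNGR2 and ISG20 lie at 1.65 and 3.47 with library totals and at 0.34 and -0.28 with the score.

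Lymphoid markers were not uniform in how they varied with the members. T cells had 1 of 7 markers, the kinase LCK, at 401 CPM in heifer 94, 41.0 in 101, 288 in 107, 342 in 113 and 3.32 in 115. Pregnant heifers had 7.04 to 247 CPM in AI-preg, with a median of 80.0, and 37.1 to 216 in NB-preg, with a median of 56.8. CD22, the most abundant of the B cell markers, had 277 CPM in heifer 94, 527 in 101, 194 in 107, 608 in 113 and 7.74 in 115. It had 30.3 to 399 CPM in AI-preg heifers and 27.2 to 528 in NB-preg heifers. Over the 17 heifers CD22 had r = 0.89 with PSME1 (rho = 0.81, and 0.82 without 2 heifers) and 0.69 with PSMB9 (rho = 0.73, and 0.60 without 2). With ISG20 it had r = 0.19 (rho = 0.12, and -0.020 without 2), and with IFNGR2 r = 0.49 (rho = 0.47, and 0.50 without 2). CD79A, another B cell marker named after its values were seen, had r = 0.91 with PSME1 (rho = 0.96, and 0.97 without 2), 0.89 with PSMB9 (rho = 0.89, and 0.87 without 2), 0.55 with ISG20 (rho = 0.52, and 0.38 without 2) and 0.60 with IFNGR2 (rho = 0.54, and 0.61 without 2). LCK had r = 0.89 with PSME1 (rho = 0.86, and 0.88 without 2) and 0.86 with PSMB9 (rho = 0.87, and 0.87 without 2), and lower values with ISG20 (r = 0.64, rho = 0.75, and 0.56 without 2) and IFNGR2 (r = 0.52, rho = 0.56, and 0.58 without 2). The NK cell markers differed from each other, GZMB being picked after its values were seen. NKG7 had r = 0.18 with IFNGR2 (rho = 0.17, and 0.58 without 2), 0.48 with ISG20 (rho = 0.57, and 0.48 without 2), 0.67 with PSMB9 (rho = 0.72, and 0.70 without 2) and 0.67 with PSME1 (rho = 0.59, and 0.62 without 2). GZMB had r = 0.76 with IFNGR2 (rho = 0.63, and 0.88 without 2), 0.69 with ISG20 (rho = 0.36, and 0.18 without 2), 0.53 with PSMB9 (rho = 0.62, and 0.52 without 2) and 0.59 with PSME1 (rho = 0.66, and 0.59 without 2). The heifers left out in each case were the most distant from the middle value of the member. Heifer 101 had a high level of CD22 and a low level of LCK, and heifer 115 had the lowest level of both. The part of these markers in the members' levels was not tested.

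Other markers were fewer. NK cells had 2 of 5, NKG7, the more abundant, and GZMB, which was at 0 in 1 library. Their sum was 74.0 CPM in heifer 94, 15.8 in 101, 32.1 in 107, 69.3 in 113 and 2.83 in 115, and 8.01 to 42.1 in pregnant heifers. Dendritic cells had 1 of 6, SPIB, with 18.9 to 506 CPM in non-pregnant and 37.8 to 368 in pregnant heifers. SPIB had r = 0.92 with PSME1 (rho = 0.86, and 0.90 without 2 heifers), 0.82 with PSMB9 (rho = 0.83, and 0.78 without 2), 0.52 with IFNGR2 (rho = 0.45, and 0.54 without 2) and 0.36 with ISG20 (rho = 0.25, and 0.17 without 2). Eosinophils had 1 of 4, IL5RA, with 22.4 CPM in heifer 94, 12.9 in 101, 36.8 in 107, 21.2 in 113 and 15.2 in 115, and 3.73 to 17.4 in pregnant heifers. IL5RA had r = 0.75 with IFNGR2 (rho = 0.70, and 0.61 without 2), 0.69 with ISG20 (rho = 0.56, and 0.48 without 2), 0.38 with PSMB9 (rho = 0.34, and 0.56 without 2) and 0.36 with PSME1 (rho = 0.61, and 0.66 without 2). IL5RA, like LCK, was also above every pregnant heifer in heifers 94, 107 and 113. Platelets had 2 of 6, TUBB1 the most abundant, and their sum was 41.5 CPM in heifer 94, 425 in 101, 49.9 in 107, 149 in 113 and 1530 in 115, within 8.13 to 1889 in pregnant heifers. In heifer 115 that sum was TUBB1, at 1530.1 CPM, while the other platelet marker, ITGA2B, had 0.123 CPM there, its lowest value. The markers also lay on opposite sides between groups, with a log2 fold change of non-pregnant over pregnant of -0.98 (SE 1.29) for TUBB1 and 1.93 (SE 0.88) for ITGA2B. ITGA2B had r = 0.87 with PSMB9 (rho = 0.85, and 0.89 without 2), 0.84 with PSME1 (rho = 0.92, and 0.87 without 2), 0.77 with ISG20 (rho = 0.70, and 0.63 without 2) and 0.71 with IFNGR2 (rho = 0.67, and 0.67 without 2). TUBB1 had values below 0 with each member, at r = -0.70 with ISG20 (rho = -0.47, and -0.69 without 2), -0.37 with IFNGR2 (rho = -0.32, and -0.47 without 2), -0.27 with PSMB9 (rho = -0.21, and -0.28 without 2) and -0.24 with PSME1 (rho = -0.13, and -0.20 without 2). The 5 monocyte and 6 red cell markers of the lists were not analysed here.

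Depth differed between groups as well. PWBC totals were 15534521 counts in heifer 94, 4184999 in 101, 8175887 in 107, 20164587 in 113 and 8150879 in 115. AI-preg heifers had 15353819 to 67192941 counts and NB-preg heifers 6402207 to 56867279. With the log2 total r was -0.10 for IFNGR2 (rho = -0.069, and -0.14 without heifers 101 and 99), -0.26 for ISG20 (rho = -0.25, and -0.40 without them), -0.056 for PSMB9 (rho = -0.029, and -0.064 without them) and 0.22 for PSME1 (rho = 0.12, and 0.29 without them). The 10 most counted genes held a median of 10.2% of the counts in non-pregnant and 6.29% in pregnant heifers, and the part of depth in the members' levels was not tested.

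Plasma small RNA libraries are a readout that the choice of members did not use, and in them the 4 genes were barely counted. IFNGR2 had 7 counts in 5 of 17 heifers, ISG20 2 counts in 1 heifer, PSMB9 11 counts in 4 heifers and PSME1 28 counts in 6 heifers, of library totals between 1073910 and 17024777. Non-pregnant heifers held 2 of the counts of IFNGR2, 1 of PSME1 and none of ISG20 or PSMB9. PSME1 had 14 of its counts in heifer 117 and PSMB9 6 in heifer 92, so single animals gave a large part of what was seen. A minimum of 10 counts in 9 libraries was set for a test and no member reached it, so no difference could be tested. The plasma libraries were prepared for small RNA and size-selected on a gel. Their few counts are therefore no measure of the messenger RNA of these genes.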

How the data were processed

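The deposited PWBC and plasma tables hold counts, which the authors made with HISAT2 2.1.0 on ARS-UCD1.2 and featureCounts (1.6.0 in the processing notes) after removing reads with several alignments or 5 or more mismatches and duplicates. From these counts deposited by the authors, CPM and log2(CPM + 1) were computed with the total over the genes kept. PWBC totals were 4184999 to 67192941. Differences were fitted with edgeR 4.0.16 (quasi-likelihood, robust, the 3 groups in 1 model, no scaling factors) in R 4.3.3, with Benjamini-Hochberg adjustment over 10942 genes. Code was tested on simulated data. Alternatives were TMM factors, DESeq2 1.42.0, the likelihood ratio test, 1 CPM or no filter, a neutrophil score as covariate, leaving out each heifer, Spearman's rho, a pseudocount of 0.25 and values centred within groups. Other values used Python 3.11.15, numpy 2.4.6 and pandas 2.3.3, and plots matplotlib 3.10.9.

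By rule the named genes are the 4 members and all measured genes of the receptor chain and immunoproteasome lists. The rule also takes the gene with the smallest p in each other list and comparison. It adds the 5 genes most like each member with the most opposed, and the most abundant marker of each cell type. Genome neighbours, further list genes and further markers such as ITGA2B were named outside this rule, several after their values were seen. Members and lists were chosen with earlier results of these data known. Symbols came from the identifiers of the supplementary tables (2335), so lists are covered in part. The annotation version differs between the authors' methods and code, as does that of featureCounts between the notes and the code. Intervals and fits cover the counts as given, and PCR duplicates beyond those removed were not examined.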

Additional observations from a re-analysis of the deposited data

Results flagged for a closer look

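In 39 groups of values from the members, list genes and markers, 2 held a heifer far from the rest of its group. ISG20 was at 9.00 CPM in AI-preg heifer 114, where the other AI-preg heifers had 0.333 to 2.102. PSME3 was at 36.3 CPM in non-pregnant heifer 115, where the others of that group had 205 to 272. Chance alone sets apart a heifer in about 1 in 20 groups. For the 13 values and markers looked at, 2 of 39 groups is about that rate. The remaining list genes and markers were not screened, so the rate does not cover them. IFIT3, for one, was at 518 CPM in AI-preg heifer 114, against a group median of 24.6. The cause was not tested.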

How the results depend on the processing

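No paired analysis was possible because the groups compared hold different heifers. The edgeR quasi-likelihood test called 0 genes in all 4 comparisons, also with TMM, with a filter at 1 CPM, with the neutrophil score and without any single heifer (lowest 0, highest 0 in each comparison). For non-pregnant against pregnant, DESeq2 called 44 genes, the likelihood ratio test 18 and the fit without a filter 3, and DESeq2 called 5 against AI-preg and 11 against NB-preg. Of the members' fold changes of non-pregnant over pregnant under alternatives 87 stayed within the spread, 1 moved and 4 changed sign. With the score as covariate ISG20 was at -0.28, PSMB9 at -1.26 and PSME1 at -0.51, while IFNGR2 moved to 0.34. Leaving out single heifers gave 1.35 to 1.90 for IFNGR2, 3.03 to 4.16 for ISG20, -0.090 to 1.45 for PSMB9 (below 0 without heifer 113) and 0.53 to 1.11 for PSME1. Of the correlations between members 118 stayed and 2 moved, Spearman's rho of 0.38 for IFNGR2 with ISG20 and of 0.79 for PSMB9 with PSME1. Most of these alternatives leave out a single heifer. Values in pregnant heifers alone are not among them, where r was 0.22 for IFNGR2 with ISG20 and 0.59 for IFNGR2 with PSME1, against 0.72 and 0.58 in all heifers. Of the 5 genes most like each member, Spearman's rho shared 0 for IFNGR2, 1 for ISG20, 2 for PSMB9 and 1 for PSME1, against 4, 4, 3 and 3 for centred values and 3, 5, 4 and 4 for TMM. The cause was not tested. ISG20 rests on few counts in most heifers, down to 1 in heifer 101, which limits its fold changes.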
